A study of Mus musculus with 4 samples.

Results

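The collagen genes described here were the 42 autosomal protein-coding genes of the GENCODE annotation (mm10) whose symbol is Col, a number, the letter a and a number, out of 21938 protein-coding genes. They lay on 14 chromosomes and were between 7.11 kb (Col10a1) and 468 kb (Col25a1) long. MeDIP-seq, in which an antibody against 5-methylcytosine pulls down methylated DNA before sequencing, was carried out on whole handpicked islets of mice at 8 weeks of age. There were 2 libraries of WT mice, which carried floxed Raptor alleles (Raptor lox/lox) and no Cre, and 2 libraries of βRapKO mice (Raptor lox/lox; RipCre), in which Cre is driven by the rat insulin promoter. Both genotypes are labelled C57BL/6. Raptor is an essential part of the kinase complex mTORC1. Cre acts in insulin-expressing cells, whereas the islet DNA also came from the other cell types of the islet, so a change in the mix of cells and a change of methylation within a cell cannot be told apart. The labels do not say how many mice went into a library, and the p-values measure only the spread between these libraries, which may be technical.

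Collagens are secreted proteins in which α chains wind into a triple helix. Fibrillar collagens give connective tissue its tensile strength, type IV collagen forms the network of basement membranes, and other families decorate fibrils, anchor membranes or span the cell surface. In the islet they are known as products of endothelial cells, stellate cells and fibroblasts more than of beta cells, which contact them through integrins. DNA methylation in mammals falls mostly on CpG dinucleotides, is usual along gene bodies, and is usually low at CpG-dense gene starts.

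Peaks of the 4 libraries were joined where they overlapped, and each joined stretch is called a region. Of 186169 regions, 499 overlapped a collagen gene or the 2 kb upstream of it. Each of the 42 genes had at least 1 region, against 79.8% of the other autosomal protein-coding genes, which were shorter (median 17.5 kb against 111 kb). Per 100 kb of gene the median was 11.3 regions for the collagen genes and 10.8 for the others. A value is given as tags of a library's peaks in the region, or as CPM, the tags per 1000000 tags of the library left after removal of duplicates. Regions are numbered from the lowest coordinate within a gene, and coordinates are of mm10. A library without a peak has no value for a region, and its DNA there may still hold tags under the caller's threshold. The 4 libraries held 25585533 to 31330751 tags after removal of duplicates and 117638 to 151093 peaks. WT replicate 2 was the deepest and had the most peaks. The assay reads DNA and gives no direct check of the cell type. In each library, 1 or 2 of 8 beta cell genes and 1 or 2 of 3 endothelial genes had a peak at the start. The same held for 1 of 3 duct cell genes, and for 0 or 1 of 2 delta cell and of 2 immune cell genes. It held for 0 of 3 alpha cell, 0 of 4 acinar, and 0 of 4 stellate cell and fibroblast genes. The intragenic Rptor region (Rptor encodes Raptor) gave 9.69 and 9.86 CPM in WT and 7.70 and 9.43 CPM in βRapKO, which does not check the deletion.

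The sequences below show what the start of a collagen gene looked like where a peak was or was not called. They are the 250 bases before the RefSeq start (GRCm38.p6), in gene sense, with each CG in capitals. CG reads the same on both strands and was counted once. Of the 42 genes, 33 matched the RefSeq promoter table. Over all 32851 promoters of that table, 92.1% held at least 1 CG within 250 bases and the median was 6 CG, while the 36 promoters of collagen genes had a median of 9.5 CG and 32 of them held at least 1.
Col5a1 promoter, chr2:27886175-27886424, plus strand, 28 CG: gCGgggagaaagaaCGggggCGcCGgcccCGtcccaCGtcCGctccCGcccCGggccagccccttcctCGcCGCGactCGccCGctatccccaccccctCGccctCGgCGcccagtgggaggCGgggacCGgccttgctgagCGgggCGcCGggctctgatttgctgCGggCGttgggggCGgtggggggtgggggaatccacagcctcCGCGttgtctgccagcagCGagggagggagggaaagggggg
Col9a2 promoter, chr4:121039316-121039565, plus strand, 9 CG: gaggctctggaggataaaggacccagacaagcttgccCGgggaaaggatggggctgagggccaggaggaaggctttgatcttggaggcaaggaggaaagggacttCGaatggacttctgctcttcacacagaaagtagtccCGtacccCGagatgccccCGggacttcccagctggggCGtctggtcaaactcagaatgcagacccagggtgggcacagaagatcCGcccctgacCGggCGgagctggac
Col3a1 promoter, chr1:45311288-45311537, plus strand, 0 CG: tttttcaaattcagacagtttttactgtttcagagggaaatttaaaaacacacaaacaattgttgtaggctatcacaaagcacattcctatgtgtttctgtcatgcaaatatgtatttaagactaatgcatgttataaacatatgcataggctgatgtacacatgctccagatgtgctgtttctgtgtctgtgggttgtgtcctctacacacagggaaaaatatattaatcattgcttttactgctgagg

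Col5a1 (an α chain of fibrillar type V collagen) and Col3a1 (the chain of type III collagen) had no region at the start, and their sequences held 28 and 0 CG, where the promoters of collagen genes ran from 0 to 31 (Col4a1). Col9a2, a chain of the fibril-associated type IX collagen of cartilage, was the 1 collagen gene whose transcription start lay inside a region. That is 2.38% of the 42 genes, against 6.5% of the other autosomal genes. The region (chr4:121036761-121039677) gave 5.12 and 5.43 CPM in WT and 5.30 and 2.60 CPM in βRapKO, so that only βRapKO replicate 2 was low and the genotypes overlapped (log2 fold-change -0.42, adjusted p = 0.868 by edgeR, quasi-likelihood test, Benjamini-Hochberg). The peak of that library was 1160 bp wide, against 2523 to 2814 bp in the other 3. Of the 15 collagen genes with 5 or more CpG per 100 bp around the start, 0 had a region over it, against 1.4% of other genes with such starts. Of the 27 with fewer CpG, 1 had a region over it, against 10.5% of other genes.

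A wider window, from 2000 bp upstream to 500 bp downstream of the start, held regions in 12 of the 42 genes (28.6%, against 25.8% of the others). Of these 13 regions, 5 had a peak in all 4 libraries. Within the genes, 40.6% of gene-region pairs lay over an exon, against 34.6% in other genes. The collagen genes also had more exons, with a median of 48 against 7, and the shares were not adjusted for this. Regions over an exon were called in all 4 libraries more often than those in introns or upstream, with 90 of 202 (44.6%) against 89 of 297 (30%), a description with no test. The regions over exons had 1.83 CpG per 100 bp and those elsewhere 1.5 (medians). There were 8 regions over the end of a gene, and all 8 were called in all 4 libraries. Across the 42 genes the number of regions per 100 kb went with the CpG density of the gene (Pearson's r = 0.50, Spearman's rho = 0.60, n = 42 genes that share the same libraries, no test). Col5a2, a fibrillar chain with 0.471 CpG per 100 bp, had 1.53 regions per 100 kb, and Col6a1, a chain of the beaded-filament type VI collagen with 1.56 CpG per 100 bp, had 31.0.

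**Figure D1:**
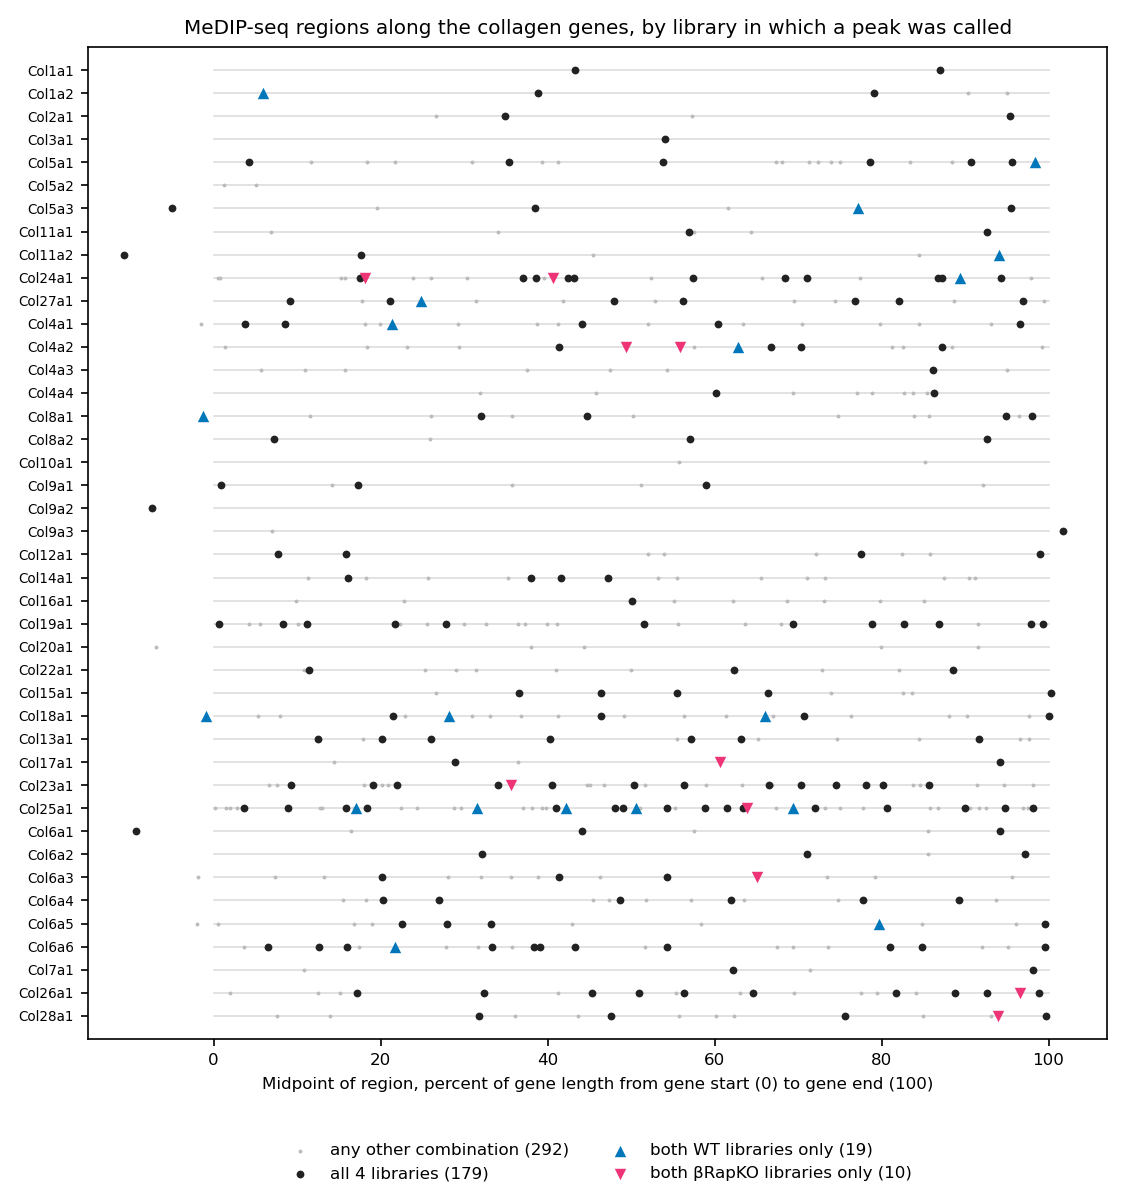
Midpoints of the 500 gene-region pairs (x axis, percent of gene length from start to end, negative values upstream) in the 42 collagen genes (rows, ordered by role), with symbols for the libraries that had a peak. Regions spread along the gene bodies and were sparse at the starts, and regions called in 1 genotype were few.

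Of the 499 regions, 179 had a peak in all 4 libraries (35.9%, against 40.3% of all regions), and they belonged to 39 of the 42 genes. Another 154 were called in 1 library, and 82 of these in WT replicate 2 alone (16.4% of collagen regions, 12.9% of all regions). Col20a1, a fibril-associated collagen, had 5 regions, all called in WT replicate 2 alone with 0.862 to 1.08 CPM. Col10a1, the short-chain collagen of hypertrophic cartilage, had 2 regions, both over exon 3 and each missing from 1 βRapKO library. They also lay within the window of Nt5dc1. Col5a2 had 2 regions in intron 1, of which 0 were shared by all libraries.

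Among the 179 regions present in all libraries, 0 were lower and 0 were higher in βRapKO past 1.5-fold with an FDR under 0.05 in edgeR, where 0% and 0% of all 75052 regions were called. The smallest adjusted p was 0.419. Simulated data gave every region the same common spread, estimated from these libraries, and calls were made by FDR alone. There 53 of 100 regions changed 2-fold and 3 of 100 changed 1.5-fold were found, and 3 unchanged regions were called. Most differences of 1.5-fold were thus missed at this depth even in that simpler setting. At an unadjusted p under 0.05, 14 collagen regions (7.82%) were lower and 3 (1.68%) were higher, against 3.93% and 1.88% of all regions. Of 37339 regions of other autosomal protein-coding genes, 1795 were lower and 680 higher. The collagen counts depended on the settings. With tags in peaks as library size they were 4 lower and 7 higher, against 656 and 3842 of all 75052 regions. With TMM factors they were 8 and 4, against 1802 and 2253. Per kb of peak they were 23 and 3, against 9519 and 258. With DESeq2, which differs in both scaling and test, they were 1 and 1, against 365 and 598. Leaving out 1 library moved the lower count in both directions, with 1 library then left in a genotype. Both βRapKO libraries lay below both WT libraries in 56 regions (31.3%), against 25.3% of all regions, and above them in 18 (10.1%), against 11.6%.

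The median collagen region was slightly lower in βRapKO. The median log2 fold-change was -0.08 over the 179 regions and -0.06 over all 75052, and 120 of the 179 (67%) lay below WT, against 61.0% of all regions. Over regions of other autosomal protein-coding genes the median was -0.07, and 62.5% lay below WT. The libraries' medians over collagen regions, relative to the WT mean, were 0.0027 and -0.0027 in WT and -0.12 and -0.04 in βRapKO, with a spread (pooled SD) of 0.042. The difference depends on how libraries are scaled. When libraries were scaled by their tags in peaks, the median of all regions moved to 0.10 and that of collagen regions to 0.07, and 41.3% of collagen regions lay below WT. With TMM factors the medians were 0.00282 and -0.02, and 54.2% lay below WT. Against the median of all regions, the collagen median stood at -0.02 with the unscaled library sizes, at -0.03 with tags in peaks, at -0.02 with TMM and at 0.00125 per kb of peak, and these differences were not tested. Per kb of peak the collagen and overall medians were -0.16 and -0.17, and peaks were wider in βRapKO in 120 of the 179 regions.

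**Figure D2:**
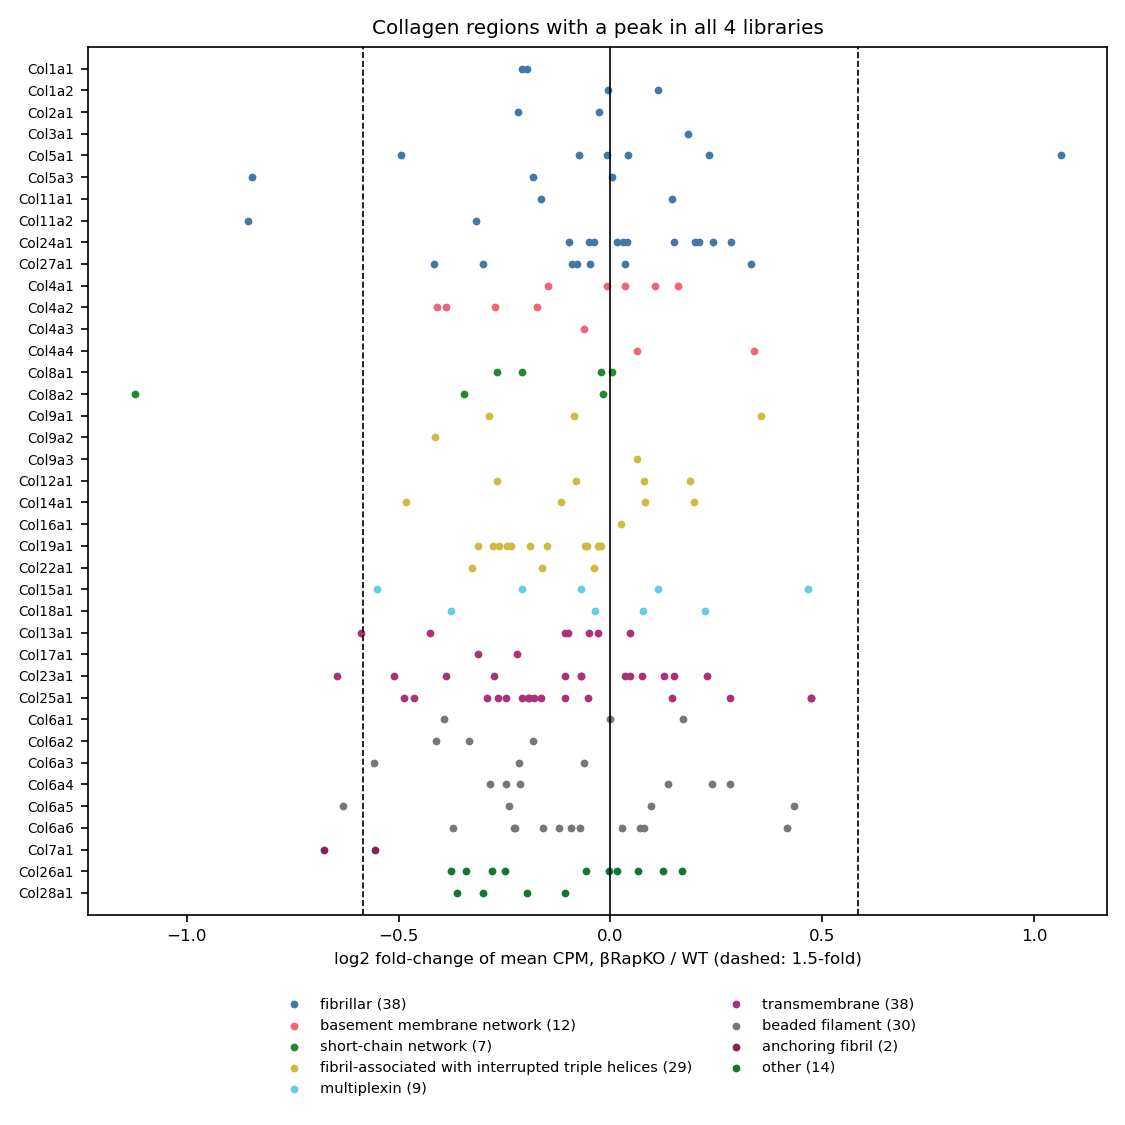
Log2 fold-change of mean CPM (x axis, βRapKO over WT) of the 179 regions called in all 4 libraries, by gene (rows) and coloured by the role of the gene, where numbers in the legend count gene-region pairs and dashed lines mark 1.5-fold. Most points lie within 1.5-fold of WT, and the farthest are Col8a2 at -1.12 and Col5a1 at 1.06.

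Mean CPM was more than 1.5-fold lower in βRapKO in 7 collagen regions (3.91%) and more than 1.5-fold higher in 1 (0.559%), against 1.77% and 1.29% of all regions. Over regions of other autosomal protein-coding genes the shares were 2.19% and 1.26%. The widths of the collagen peaks differed with their CPM: per kb of peak, 3 of the regions named below stayed past 1.5-fold lower (Col8a2, Col7a1 and Col23a1). Leaving out 1 library moved both counts, and the shares over all regions without it were not counted. The sequences below come from 3 of the 4 regions farthest from WT (all but Col11a2 region 1) and the strongest called in WT alone. Each is the 200 bases with the most CG among stretches of the region without untranslated exon bases. They are from the GRCm38 reference in gene sense, with each CG in capitals. The exons or intron named are those of the whole region. The Col11a2 stretch is coding over all 200 bases, and the Col5a3 stretch over 192.
Col8a2 region 3, intron 2, chr4:126301931-126302130, plus strand, 13 CG: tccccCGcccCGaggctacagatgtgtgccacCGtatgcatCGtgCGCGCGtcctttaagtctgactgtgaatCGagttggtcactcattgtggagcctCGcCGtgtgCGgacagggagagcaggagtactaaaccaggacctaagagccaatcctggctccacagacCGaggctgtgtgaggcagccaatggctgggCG
Col5a1 region 1, intron 1, chr2:27893236-27893435, plus strand, 10 CG: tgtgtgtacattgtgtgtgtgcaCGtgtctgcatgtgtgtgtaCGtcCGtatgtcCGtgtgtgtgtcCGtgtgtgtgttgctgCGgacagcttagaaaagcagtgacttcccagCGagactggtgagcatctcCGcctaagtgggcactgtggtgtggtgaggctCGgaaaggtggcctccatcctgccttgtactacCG
Col5a3 region 1, exons 63 to 65, chr9:20772297-20772496, minus strand, 10 CG: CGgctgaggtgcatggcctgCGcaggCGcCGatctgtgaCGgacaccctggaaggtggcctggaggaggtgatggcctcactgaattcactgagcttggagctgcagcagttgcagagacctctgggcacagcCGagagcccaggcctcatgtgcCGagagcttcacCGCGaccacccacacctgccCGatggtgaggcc
Col11a2 region 5, exons 62 to 66, chr17:34064025-34064224, plus strand, 12 CG: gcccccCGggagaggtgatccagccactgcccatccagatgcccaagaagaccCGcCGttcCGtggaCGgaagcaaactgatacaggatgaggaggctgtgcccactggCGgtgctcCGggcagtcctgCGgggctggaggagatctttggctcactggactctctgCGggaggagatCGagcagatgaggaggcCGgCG

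Col8a2 encodes a chain of the short-chain type VIII collagen, which forms hexagonal networks such as that under the corneal endothelium. Its region 3 (chr4:126301499-126303500, intron 2, 15706 bp from the start, 43 CpG) held 82 and 131 tags in WT and 43 and 56 in βRapKO, or 3.21, 4.18, 1.47 and 1.92 CPM. Each βRapKO library was below each WT library, with a log2 fold-change of -1.12 (SE 0.229, adjusted p = 0.428, edgeR). The peaks were also wider in WT, at 1311 and 2002 bp against 1014 and 1224 bp, and per kb of peak the log2 fold-change was -0.59. Region 4, over exon 4, gave 4.22 and 4.66 CPM in WT and 3.35 and 3.63 in βRapKO (log2 fold-change -0.35, adjusted p = 0.858). Leaving out each library in turn gave log2 fold-changes of region 3 between -1.33 and -0.92.

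Type V collagen nucleates fibrils, and its chains held regions on either side of WT. Col5a1 region 1 (chr2:27892063-27893838, intron 1, 6525 bp from the start, 27 CpG) held 34 and 39 tags in WT and 85 and 72 in βRapKO, or 1.33, 1.24, 2.91 and 2.47 CPM. Both βRapKO libraries were above both WT libraries (log2 fold-change 1.06, SE 0.205, adjusted p = 0.419, edgeR). The peak was 887 and 845 bp wide in WT and 1471 and 1757 bp in βRapKO, and per kb of peak the log2 fold-change was 0.19. In the same gene, region 16 (chr2:28005494-28008048) lay on the other side, with 4.81 and 6.48 CPM in WT and 3.80 and 4.22 CPM in βRapKO (log2 fold-change -0.49, adjusted p = 0.850, and -0.26 without WT replicate 2). Summed over its 6 regions Col5a1 gave 15.7, 14.8, 14.4 and 15.9 CPM, in the order WT replicates 1 and 2 and βRapKO replicates 1 and 2, with no separation of the genotypes.

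Col5a3, another type V chain, had 51 and 63 tags in WT and 32 and 33 in βRapKO in region 1 (chr9:20771376-20772776, exons 63 to 65 of 67), or 1.99, 2.01, 1.09 and 1.13 CPM. The replicates of each genotype were close together and the genotypes were apart (log2 fold-change -0.85, SE 0.180, adjusted p = 0.455, edgeR). Per kb of peak the value was -0.26, with peaks of 1311 and 1360 bp in WT and 878 and 898 bp in βRapKO.

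Col11a2 encodes a chain of the fibrillar type XI collagen of cartilage. Its region 1 (chr17:34035158-34037849) is upstream of the gene and also lies in the window of Rxrb, and gave 2.19 and 4.56 CPM in WT and 1.57 and 2.16 CPM in βRapKO (log2 fold-change -0.85, adjusted p = 0.858, edgeR). WT replicate 2 was high, with a peak of 2692 bp against 895 to 1202 bp elsewhere. Without it the log2 fold-change was -0.23, and per kb of peak it was -0.02. Region 5 of the gene (chr17:34063884-34066230, exons 62 to 66 of 66, 58 CpG) was called in WT alone and had the most tags of any collagen region called in 1 genotype, 93 and 145. Over the 2 regions shared by all libraries the gene total was 10.2 and 10.5 CPM in WT and 5.65 and 9.29 CPM in βRapKO, with βRapKO replicate 1 far below the rest.

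Of the remaining regions past 1.5-fold, region 4 of Col7a1, the gene of the anchoring fibrils that tie skin epithelium to dermis, covered exons 117 to 119 of 119 and the window of Ucn2 (chr9:108983732-108984822). It gave 1.84 and 1.88 CPM in WT and 1.03 and 1.30 CPM in βRapKO (log2 fold-change -0.68, and -0.59 per kb). Col23a1 is a transmembrane collagen, and its region 20 in intron 2 (chr11:51485081-51485736) gave 1.99 and 1.92 CPM against 1.06 and 1.44 CPM (log2 fold-change -0.64, and -0.67 per kb). Neither region had genotypes that overlapped. Region 7 of Col6a5, a type VI chain (exons 9 and 10, chr9:105925128-105926615), gave 2.03 and 1.79 CPM against 1.23 and 1.23 CPM (log2 fold-change -0.63), but -0.09 per kb of peak. Region 12 of Col13a1, a transmembrane collagen of cell junctions (intron 2, chr10:61950059-61951379), gave 2.23 and 2.46 CPM against 1.57 and 1.54 CPM (log2 fold-change -0.59, and -0.51 per kb). The adjusted p was 0.748 to 0.823 for these 4 regions.

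**Figure D3:**
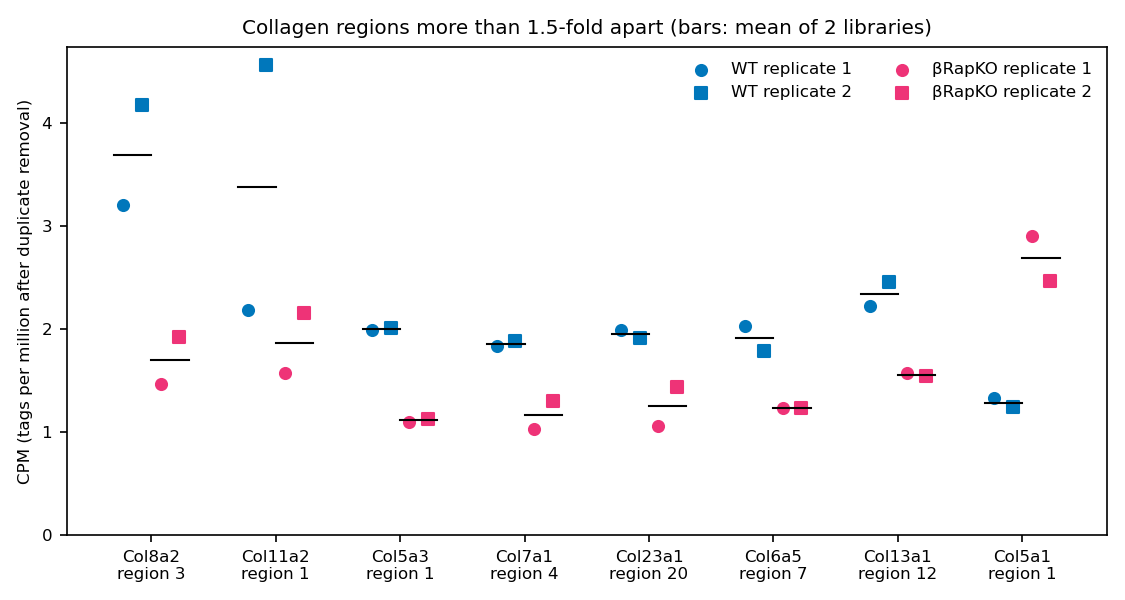
CPM in each library (y axis) of the 8 collagen regions past 1.5-fold, with colours for the genotype, symbols for the replicate and bars for the mean of 2 libraries. The genotypes are apart in all 8, though in Col11a2 region 1 by little (2.16 against 2.19 CPM). The 8 were chosen for their difference of means, so their separation follows in part from the choice.

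Regions with tags and widths that moved unlike each other were frequent. By CPM and per kb of peak alike, 110 of the 179 regions were lower and 26 were higher, 33 were higher by CPM and lower per kb, and 10 were lower by CPM and higher per kb. Per kb, 12 collagen regions (6.70%) were past 1.5-fold lower and 0 higher, against 4.02% and 0.120% of all regions. Among the 10 was region 2 of Col15a1, a multiplexin of basement membrane zones (exons 3 and 4, chr4:47244877-47248240). It gave 6.18 and 9.03 CPM in WT and 5.0 and 5.38 CPM in βRapKO (log2 fold-change -0.55, adjusted p = 0.849, and -0.25 without WT replicate 2), with peaks of 2301 and 3362 bp in WT and 1489 and 1549 bp in βRapKO, and 0.35 per kb.

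**Figure D4:**
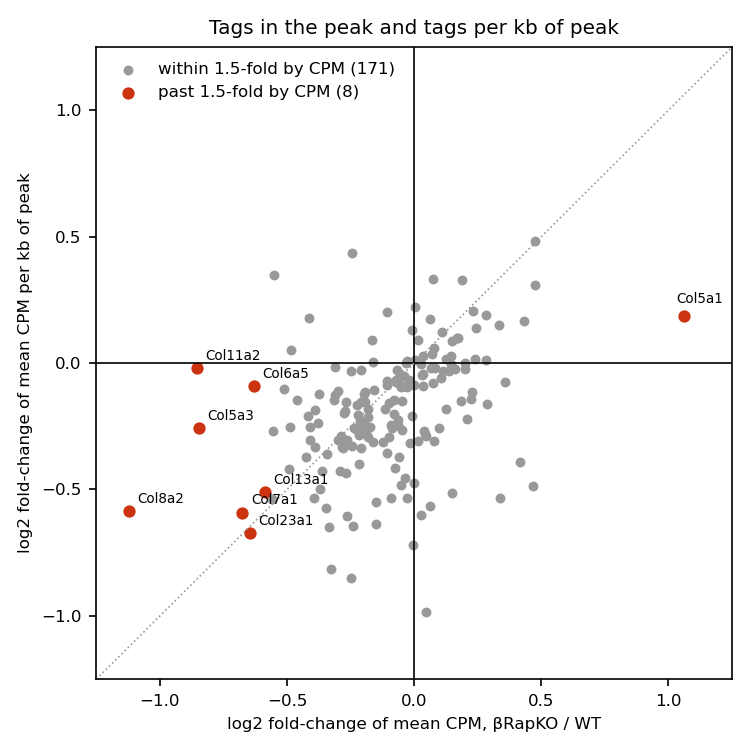
Log2 fold-change of mean CPM (x axis) against log2 fold-change of mean CPM per kb of peak (y axis), βRapKO over WT, for the 179 collagen regions in all 4 libraries, with the 8 regions past 1.5-fold by CPM named. Points far from the dotted diagonal, such as Col5a1 (1.06 and 0.19), are regions whose peak widths differed between genotypes.

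Some regions were called in 1 genotype alone. A call in both WT replicates, with no call in βRapKO, was made at 19 collagen regions (3.81%, against 4.16% of all regions), and the reverse at 10 (2.0%, against 1.58%). Their tags were few, with a median of 41 per library, where the caller's lowest peaks held 23 to 25. Col25a1, a transmembrane collagen of neurons and the longest of the genes, had 5 of the 19 and 1 of the 10. The strongest of these 5 was region 27 in intron 2 (chr3:130367410-130369413), with 2.27 and 2.55 CPM. Col18a1, the source of endostatin, had 3, of which region 22 (chr10:77166888-77168135) lay just upstream of the gene with 1.84 and 2.36 CPM. The strongest regions called in βRapKO alone were regions 6 and 7 in intron 4 of Col4a2 (chr8:11379172-11381168 and chr8:11388336-11389647), with 2.67 and 2.54 CPM and 1.88 and 2.13 CPM.

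Col4a1 and Col4a2 encode the common chains of basement membrane type IV collagen and are transcribed away from each other from adjacent starts. The 1 region shared by their windows (chr8:11313376-11315826) was called in βRapKO replicate 1 alone, with 92 tags. Summed over regions in all libraries, Col4a2 gave 11.6 and 10.4 CPM in WT and 8.73 and 9.05 CPM in βRapKO, so that the genotypes did not overlap (log2 fold-change -0.31, SE 0.123, adjusted p = 0.563, edgeR on gene totals). The log2 fold-change was -0.18 without WT replicate 1 and -0.20 without βRapKO replicate 1. All 4 of its shared regions were lower, from -0.41 in region 14 over exon 30 to -0.17 in region 5. This total leaves out regions 6 and 7, which had peaks in βRapKO alone. Col4a1 gave 13.9, 16.1, 16.1 and 14.4 CPM, with the genotypes overlapping (log2 fold-change 0.02). Of the chains of specialised basement membranes, Col4a3 gave 1.37, 1.85, 1.47 and 1.61 CPM in 1 region. Col4a4 gave 12.9 and 11.8 CPM in WT and 17.6 and 12.9 CPM in βRapKO (log2 fold-change 0.30, adjusted p = 0.602), so that only βRapKO replicate 1 stood apart. Without it the log2 fold-change was 0.037, and per kb of peak the total was at -0.36. Most of that lay in region 8 in intron 22 (chr1:82500557-82506618), of which 88.0% was repeat sequence. Per kb of peak that region was at -0.53, with peaks of 2687 and 2768 bp in WT and 6062 and 3981 bp in βRapKO.

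For the 39 genes with a shared region, 0 gene totals were lower and 0 were higher past 1.5-fold with an FDR under 0.05, as for 0% and 0% of the 13365 genes tested. The total was below WT in 31 (79.5%, against 69.2% of all genes) and above in 8. At an unadjusted p under 0.05, 5 of 39 (12.8%) were lower and 0 were higher, against 7.32% and 1.24% of all genes. The counts at that p were 0 and 2 with tags in peaks as library size, 3 and 1 with TMM, 13 and 0 per kb of peak, and 0 and 1 with DESeq2. Counts over all genes under these settings were not made, so these have no share beside them. Leaving out 1 library moved the lower count in both directions, with 1 library then left in a genotype. The total of both βRapKO libraries lay below both WT libraries in 17 genes (43.6%, against 32.6%) and above in 3 (7.69%, against 8.51%), namely Col3a1, Col4a4 and Col16a1, of which Col4a4 had βRapKO replicate 2 barely above WT replicate 1. The 5 genes lower at an unadjusted p under 0.05 were Col8a2, Col6a2, Col7a1, Col4a2 and Col11a2.

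Col8a2 gave 10.3 and 11.8 CPM in WT and 7.39 and 8.77 CPM in βRapKO (log2 fold-change -0.45, SE 0.139, adjusted p = 0.563, edgeR). Col6a2, a chain of the beaded filaments of type VI collagen, gave 13.3 and 15.4 CPM against 10.7 and 12.0 CPM (log2 fold-change -0.34, SE 0.123, adjusted p = 0.563). Its strongest region covers exon 28, the last, with 5.75 and 6.42 CPM against 4.14 and 5.0 CPM. Both genes were lower in each βRapKO library. Col7a1 gave 6.84 and 7.25 CPM in WT and 3.49 and 5.90 CPM in βRapKO (log2 fold-change -0.59, SE 0.224, adjusted p = 0.563), so that βRapKO replicate 1 was the lowest by far. Without βRapKO replicate 2, the log2 fold-changes of the Col7a1 and Col11a2 totals were -1.12 and -0.87. Without βRapKO replicate 1 their log2 fold-changes were -0.26 and -0.16. Per kb of peak, Col22a1, a fibril-associated collagen of tissue junctions, passed with a log2 fold-change of -0.62 (adjusted p = 0.0454, edgeR). How many of all genes passed per kb was not counted, and 79.6% of all regions lay below WT there. By CPM Col22a1 gave 7.93 and 8.36 in WT and 6.67 and 7.13 in βRapKO (log2 fold-change -0.24, adjusted p = 0.623, edgeR).

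**Figure D5:**
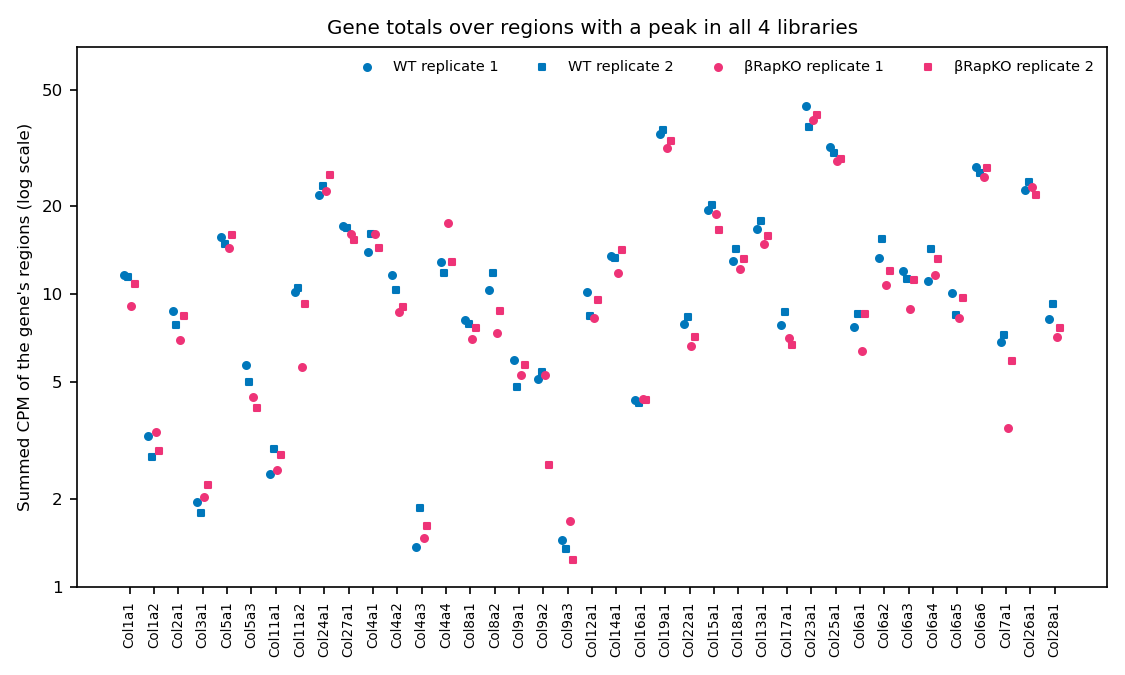
Summed CPM (y axis, log scale) over the regions called in all 4 libraries of each of the 39 collagen genes (x axis, ordered by role), with colours for the genotype and symbols for the replicate. The total of βRapKO replicate 1 is far below the other 3 libraries in Col7a1 (3.49 CPM) and Col11a2 (5.65 CPM).

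The shared regions are given by role in the following, as medians of the log2 fold-change of mean CPM with no test. Of all regions, 61.0% lay below WT with the same library sizes. Among the fibrillar genes, 21 of 38 shared regions were below WT (median -0.02). Col1a1 and Col1a2, the chains of type I collagen, the main collagen of bone and skin, gave 11.6 and 11.4 CPM in WT against 9.14 and 10.9 CPM in βRapKO, and 3.28 and 2.78 CPM against 3.39 and 2.91 CPM. The strongest Col1a1 region, over exons 46 to 51 of 51 (chr11:94949698-94952026), gave 8.87 and 8.43 CPM in WT and 7.02 and 7.95 CPM in βRapKO (log2 fold-change -0.21, adjusted p = 0.864). Col3a1, whose promoter above holds 0 CG, had 1 region, over exons 18 to 20, with 1.95 and 1.79 CPM in WT and 2.02 and 2.23 CPM in βRapKO (log2 fold-change 0.18, adjusted p = 0.906). In Col24a1 8 of 11 regions were above WT.

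The fibril-associated genes had 22 of 29 shared regions below WT (median -0.09), and 12 of these were in Col19a1. That gene was below WT in 12 of 12 regions, with log2 fold-changes of -0.31 to -0.02. Its total was 35.3 and 36.4 CPM in WT and 31.6 and 33.3 CPM in βRapKO (log2 fold-change -0.14, SE 0.0777, adjusted p = 0.626, edgeR). The difference depended on the scaling: the log2 fold-change of the total was 0.016 with tags in peaks as library size, -0.056 with TMM and -0.25 per kb of peak. Transmembrane collagens were below WT in 27 of 38 regions (median -0.11) and beaded-filament collagens in 20 of 30 (median -0.14). The multiplexins were below in 5 of 9 (-0.04), the basement membrane network in 7 of 12 (-0.04) and the short-chain network in 6 of 7 (-0.21). Both shared regions of Col7a1, the 1 anchoring fibril gene, were below WT (-0.62), and so were 10 of 14 in Col26a1 and Col28a1 together (-0.15). The collagen region with the most tags was region 15 of Col23a1 in intron 2 (chr11:51436091-51440128), with 15.8 and 10.5 CPM in WT and 15 and 15.8 CPM in βRapKO. Only WT replicate 2 was low there, its peak was 2033 bp wide against 3637 to 4037 bp, and 61.8% of the region was repeat sequence. Col25a1 held 2 of the 3 regions that were higher at an unadjusted p under 0.05: region 37 in intron 7 with 1.21 and 1.18 CPM against 1.61 and 1.71 CPM (log2 fold-change 0.47), and region 45 over exon 23 with 1.60 and 1.63 CPM against 2.19 and 2.30 CPM (log2 fold-change 0.47).

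Other genes of the collagen pathway were read from the same fits, in 4 lists of 53 genes, of which 46 had a shared region. By gene total 35 were below WT (76.1%, against 69.2% of all genes) and 11 above. None passed the FDR (0 of 46), and 4 were lower (8.7%) and 0 higher at an unadjusted p under 0.05, against 7.32% and 1.24% of all genes. Of the 23 biosynthesis genes tested, 16 were below WT. Plod3, a lysyl hydroxylase and glycosyltransferase of collagen, gave 11.5 and 11.4 CPM in WT and 8.59 and 8.77 CPM in βRapKO (log2 fold-change -0.40). Serpinh1, the collagen chaperone HSP47, gave 7.93 and 7.82 CPM against 5.61 and 6.82 CPM (log2 fold-change -0.34), and the cross-linking oxidase Loxl3 gave 12.7 and 12.9 CPM against 10.4 and 10.6 CPM (log2 fold-change -0.29). Of the 6 receptors tested 5 were below WT, and Itga10, an integrin chain that binds collagen, gave 3.91 and 4.79 CPM against 2.87 and 2.47 CPM (log2 fold-change -0.70). In all 4 of these genes each βRapKO library was below each WT library, with adjusted p of 0.458 to 0.573 (edgeR). The 4 were chosen by their unadjusted p, which favours such a separation, and 32.6% of all genes were apart in that direction. The basement membrane partners (12 of 15 below WT) and the degrading enzymes (2 of 2) had 0 genes at an unadjusted p under 0.05.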

How the data were processed

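MeDIP-seq libraries of islets from 2 WT and 2 βRapKO samples were analysed. The authors aligned reads to mm10 with Bowtie2 (version 2.2.5 in the submitters' processing notes) and called peaks in each library alone, with no control library. The file headers name MACS 1.4.2, the processing notes MACS 0.14.2. Per the file headers the p cutoff was 1e-05, 1 tag was kept per position and the local background spanned 10000 bp. For each peak the authors deposited a count of tags, which was not normalized, a score (10 times −log10 of the p given by the caller) and a fold enrichment ratio over the local background. Calls without a control also mark places where tags pile up for other reasons, and pass more easily in a deeper library.

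Peaks were joined where they overlapped by at least 1 bp, and the tags of a library's peaks in a region were added. The 179 collagen regions with a peak in all 4 libraries held a median of 63 tags per library, and 133 of them had under 100 tags in every library. Libraries were scaled to their tags left without duplicates and by nothing further. Regions with a peak in all 4 libraries, and gene totals over them, were tested over the whole genome by the quasi-likelihood test of edgeR 4.0.16 (R 4.3.3), calling those past 1.5-fold with an FDR under 0.05. The 2 libraries per genotype allow no permutation test below the threshold. Log2 fold-changes printed are ratios of mean CPM, and SE and p come from the fit. The common dispersion was 0.015. The test was run on data simulated with 1 common dispersion for all regions, and by FDR alone found 53 of 100 regions changed 2-fold. Alternatives were DESeq2 1.42.0, limma 3.58.1, other scalings, peak thresholds, windows and samples. Regions given were drawn from the strongest of each gene, the 6 farthest from WT per direction and the 10 with the smallest p. Those called in 1 genotype and those at gene starts were also drawn from. Not all of these are described, and the rest are in counts. The 6 farthest lower regions are all described. Of the 6 farthest higher ones, Col15a1 region 9, Col6a5 region 1 and Col6a6 region 15 are not (log2 fold-changes 0.47, 0.43 and 0.42). The gene rule and the lists were chosen with earlier results of these data known. The chromosome names of the peak files matched the GRCm38 reference.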

Additional observations from a re-analysis of the deposited data

How the results depend on the processing

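No collagen region passed the FDR under any alternative. With all 4 libraries kept, 1 collagen gene total passed, per kb of peak (Col22a1), and the number of all genes that passed there was not counted. Fits that leave 1 library in a genotype are given by effect size only. Without βRapKO replicate 2, the log2 fold-changes of the Col7a1 and Col11a2 totals moved to -1.12 and -0.87. DESeq2 called 2 higher regions across the genome. Collagen regions past the fold-change numbered 7 lower and 1 higher. They became 3 and 5 with tags in peaks as library size, 12 and 0 per kb of peak, 0 and 0 with peaks of a score of at least 100, 0 and 0 with at least 50 tags in every library, 1 lower with a fold-change above 2, and, without 1 library, 6 to 21 lower and 2 to 5 higher. Of these alternatives, the share over all regions was counted only per kb of peak (4.02% lower and 0.120% higher). The median log2 fold-change of collagen regions, -0.08, became 0.0702 with tags in peaks, -0.0173 with TMM, -0.0187 with DESeq2, -0.164 per kb, and -0.140 to -0.0400 without 1 library. Regions called in WT alone fell from 19 to 12 and those in βRapKO alone from 10 to 5 with peaks of a score of at least 100. Without 1 library they were 34 to 101 and 25 to 43, since 1 library then stands for its genotype. Col15a1 region 2 turned to 0.347 per kb of peak. Other alternatives kept these counts within 1.5 times. The replicate numbers share only a label: deviations from the group means of same-numbered libraries had a correlation of 0.0474 over 75052 regions. With the replicate block 0 collagen regions and 0 collagen genes were called. At an unadjusted p under 0.05, 12 collagen regions were lower in place of 14, against 3152 in place of 2950 of all regions. Of 492 values of named regions and gene totals with all 4 libraries kept, 447 moved by no more than a bound and 43 by more. The bound was the error for regions and a fixed value for gene totals. Another 1 reversed, and 1 gene total passed the FDR. Reversal was counted only for regions past 1.5-fold, or regions and gene totals at an unadjusted p under 0.05. Other signs changed, such as Col15a1 region 9 (0.47 to -0.48), Col6a6 region 15 (0.42 to -0.39) and the Col4a4 total (0.30 to -0.36). Of 240 values without 1 library, 197 moved by no more than the bound and 41 by more, and the Col7a1 and Col11a2 totals without βRapKO replicate 2, given above, are in neither count.

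A median of 63 tags per library limits what can be seen in a collagen region, as do 2 libraries per genotype. The lone library of a genotype left by leaving out the other is assumed to vary like the other genotype.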

Other observations

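Col4a5 and Col4a6, the type IV chains on the X chromosome, were outside the autosomal rule and had 2 regions each. The Col4a5 regions (chrX:141566804-141569016 and chrX:141601416-141602490) gave 3.91 and 5.68 CPM in WT against 4.14 and 5.24 CPM in βRapKO, and 1.56 and 1.47 CPM against 1.37 and 1.44 CPM. The 1 shared region of Col4a6 (chrX:141245252-141246336) gave 1.37 and 1.82 CPM against 1.44 and 1.10 CPM. None of these passed edgeR's test (adjusted p = 0.866 to 0.986).

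Collagen regions called in all 4 libraries had a median of 1.81 CpG per 100 bp and a width of 1398 bp, those called in 1 library 1.55 CpG per 100 bp and 761 bp.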
